A study of Mus musculus with 6 samples.

Results

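The transcripts of 10 C-type lectin receptors of myeloid cells were followed in cultured mouse bone marrow cells: Clec4a1, Clec4a2, Clec4a3, Clec4d, Clec4e, Clec4n, Clec5a, Clec7a, Clec10a and Clec12a. They were taken by symbol from a table of 39017 Ensembl genes, and all 10 were found there and passed the filter on low counts. The series compared macrophages of young and old marrow, and its title names leukemia progression and the CXCR5 and CXCL13 pair. RNA was sequenced from 6 libraries, 3 of young mice (3 weeks of age) and 3 of old mice (more than 78 weeks), all of the wild-type (WT) inbred strain BALB/c. The cells came from crushed limb bones, adhered to plastic and were expanded in culture, and the submitters describe them as positive for F4/80 and CD169. The labels do not say that the 3 libraries of an age came from separate mice, so each p-value measures the spread between these libraries, which may be technical.

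C-type lectin receptors are membrane proteins that bind sugars, lipids or proteins of microbes and of dying cells. Dectin-1, the product of Clec7a, binds fungal beta-glucan and carries its own activating motif in its tail. Dectin-2 (Clec4n), MCL (Clec4d) and Mincle (Clec4e) have no such motif and signal through the Fc receptor gamma chain, encoded by Fcer1g, while Clec5a signals through DAP12, encoded by Tyrobp. Both routes lead to the kinase Syk and from there to CARD9 and NF-kB. Clec12a and Clec4a2 (DCIR) carry inhibitory motifs, and Clec10a (MGL1) binds galactose-type sugars on macrophages and dendritic cells. In the mouse genome the Clec4 genes form the Dectin-2 cluster and Clec7a and Clec12a belong to the Dectin-1 cluster, both on chromosome 6.

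Clec7a and Clec12a are the receptors of the 10 that lie in the Dectin-1 cluster, and their fold changes between the ages had opposite signs, which is why their promoters are shown. Clec7a (ENSMUSG00000079293) lies on the minus strand at chr6:129461591-129472779 of the mm10 build, and Clec12a (ENSMUSG00000053063) on the plus strand at chr6:129342691-129365303. GENCODE M21 labels Clec7a a polymorphic pseudogene and Clec12a protein coding. Whether BALB/c mice carry a coding copy of Clec7a was not examined. The sequences are those of RefSeq on GRCm38.p6, run from 250 bases before to 50 bases after a transcription start, and lie at chr6:129472730-129473029 (minus strand) and chr6:129349994-129350293 (plus strand). They are written 5′ to 3′ along the gene, and capitals mark the AP-1 letters and the C/EBP letters found by a search. The Clec12a sequence lies inside the gene span given above, past its left end, so the start it surrounds is internal to the annotated gene.
Clec7a: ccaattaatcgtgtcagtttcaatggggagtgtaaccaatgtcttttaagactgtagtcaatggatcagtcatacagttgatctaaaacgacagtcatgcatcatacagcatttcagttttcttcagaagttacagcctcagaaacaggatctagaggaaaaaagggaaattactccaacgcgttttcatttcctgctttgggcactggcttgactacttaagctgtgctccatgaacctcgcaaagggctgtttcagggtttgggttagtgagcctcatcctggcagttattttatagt
Clec12a: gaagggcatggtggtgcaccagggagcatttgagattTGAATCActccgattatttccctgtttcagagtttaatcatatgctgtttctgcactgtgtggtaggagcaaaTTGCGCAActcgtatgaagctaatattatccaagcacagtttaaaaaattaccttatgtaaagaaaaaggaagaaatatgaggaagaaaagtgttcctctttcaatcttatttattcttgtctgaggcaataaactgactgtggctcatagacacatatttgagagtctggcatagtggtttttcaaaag
The search used 5 motifs on both strands: PU.1 (GAGGAAGT), C/EBP (TTGCNNAA), AP-1 (TGANTCA), the E-box of the MiT factors (CACGTG) and the interferon-stimulated response element. In Clec12a the AP-1 letters TGAATCA began at position -213 from the start and the C/EBP letters TTGCGCAA at -140, and none of the 5 was found in the Clec7a window. A promoter was found in the RefSeq table for 8 of the 10 receptors. AP-1 letters occurred in 2 of these 8 (Clec12a and Clec4a2), against 7.81% of all 32851 promoters in the table. The windows of Clec12a and Clec4a2 both lie inside the annotated genes, past the genes' left ends. C/EBP letters occurred in 2 (Clec12a and Clec4e), against 10.8%, and the interferon element in 1 (Clec4d), against 3.44%. PU.1 letters (3.20% of all promoters) and the E-box (7.15%) were in 0 of the 8. Such a match describes the letters of the window and is no evidence of binding.

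Before the ages were compared, the libraries were checked against their labels. Total counts ranged from 34391206 to 43367734 per library. The F4/80 gene Adgre1 and the CD169 gene Siglec1 were present in all 6 libraries, and both were lower in old, with log2 fold changes (old minus young) of -1.06 ± 0.14 (SE) and -1.60 ± 0.11 and adjusted p of 0.00499 and 0.000492 (edgeR's quasi-likelihood test, Benjamini-Hochberg). The summed level of 20 macrophage identity genes was 11504 to 13040 CPM (counts scaled to a common library size) in young and 7039 to 7628 CPM in old, and of the 20, 14 fell and 1 rose. Over all genes tested 4.7% fell and 5.84% rose. When 1 library was left out 9 to 14 of the 20 fell (lowest without old replicate 2) and 0 to 1 rose (1 without young replicate 3 or old replicate 3). The summed level of 10 stromal genes was higher than that in every library, at 30957 to 68913 CPM in young and 23570 to 29688 CPM in old, with young replicate 3 the highest. In such bulk samples fewer cells of a type and less RNA per cell cannot be told apart.

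Among the 10 receptors, Clec7a was higher in old, Clec4a1 was lower, and 8 did not pass the test. Over all 15567 genes tested, 909 were higher (5.84%) and 731 were lower (4.7%) at an adjusted p under 0.05. The 1 higher and 1 lower receptor of 10 are each a single gene and are read only as such. The median log2 fold change of the 10 was -0.47, beside -0.01 over all genes tested, and 9 of the 10 had a negative value, beside 8013 of the 15567. The 3 libraries of an age did not overlap those of the other for 4 receptors, 1 with old higher (15.9% of all genes tested) and 3 with old lower (14.3%). All 10 receptors had their lowest young value in young replicate 3, and 9 had their highest young value in young replicate 2.

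**Figure D1:**
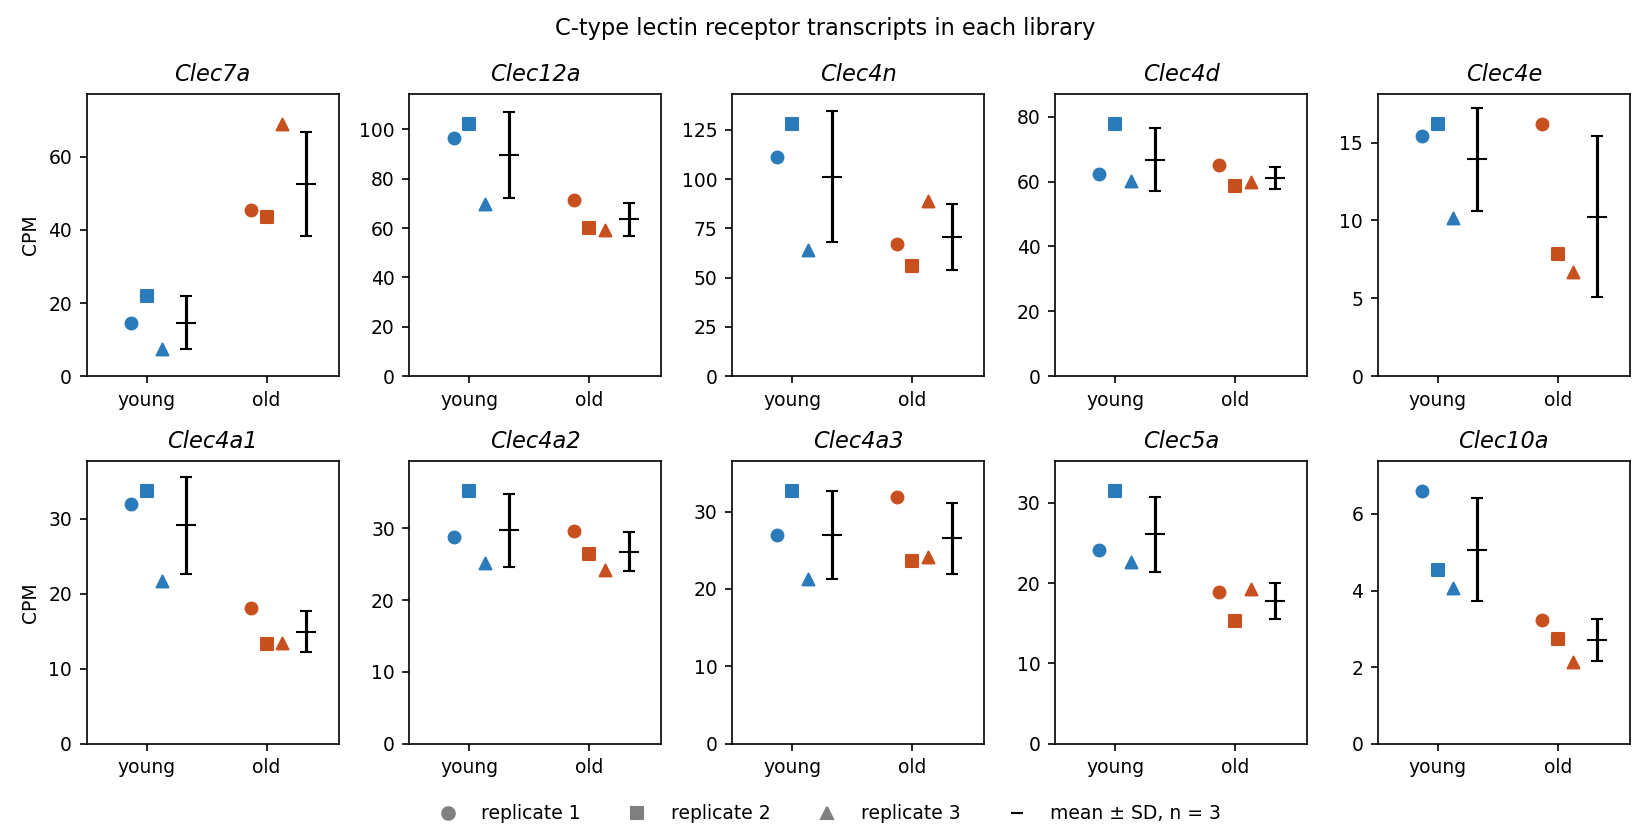
Level of each receptor transcript in CPM (y axis, from 0) in the 3 young (blue) and 3 old (orange) libraries. Marker shapes are replicate numbers and black bars are mean ± SD. All 3 old points of Clec7a lie above the young ones, and those of Clec4a1, Clec5a and Clec10a lie below them.

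Clec7a, the beta-glucan receptor Dectin-1, had the highest fold change of the 10. Its level was 14.6, 21.9 and 7.34 CPM in young replicates 1, 2 and 3 and 45.4, 43.4 and 69.0 CPM in old replicates 1, 2 and 3. The lowest old library lay above the highest young library, and young replicate 3 was the lowest of all. The means were 14.6 ± 7.28 CPM (SD, n = 3) in young and 52.6 ± 14.2 CPM (n = 3) in old, a 3.60-fold difference with a log2 fold change of 1.85 ± 0.38 (SE) and an adjusted p of 0.0251 (edgeR). The log2 fold change stayed between 1.53 and 2.26 when 1 library was left out. The call held without young replicate 2 (adjusted p = 0.0181) or young replicate 3 (0.0220). It was lost without young replicate 1 (0.0866), old replicate 1 (0.0697), old replicate 2 (0.0633) or old replicate 3 (0.0811). An edgeR fit on all 6 libraries with replicate number as a block also lost it (adjusted p = 0.0735).

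Clec12a, an inhibitory receptor for uric acid crystals encoded in the same cluster, did not pass the test. Its level was 96.6, 102 and 69.9 CPM in young replicates 1 to 3 and 71.4, 59.9 and 59.3 CPM in old replicates 1 to 3. The ages overlapped through young replicate 3, which lay below old replicate 1. The log2 fold change was -0.50 ± 0.16 (SE) with an adjusted p of 0.0996 (edgeR), and it passed without young replicate 3 (0.00711).

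The ratio of Clec7a to Clec12a counts did not overlap between the ages. It was 0.151, 0.214 and 0.105 in young replicates 1 to 3 and 0.636, 0.725 and 1.16 in old replicates 1 to 3. In every young library Clec12a had several times the counts of Clec7a, and in old replicate 3 Clec7a had more. Counts also depend on exon length, which is 5528 bases for Clec12a and 2638 for Clec7a. Per kb of exon the ratio was 0.316, 0.449 and 0.220 in young replicates 1 to 3. In old replicates 1 to 3 it was 1.33, 1.52 and 2.44. The mean ratio of counts was 0.157 ± 0.0549 (SD, n = 3) in young and 0.842 ± 0.283 (n = 3) in old, a mean log2 difference of 2.44. The pair was chosen for its opposite fold changes, so this ratio is a description with no test.

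The other genes of the Dectin-1 cluster were scarce. Clec1b, which encodes the podoplanin receptor CLEC-2 of platelets and megakaryocytes, was counted 2, 38 and 0 times in young replicates 1 to 3, against 96, 108 and 20 times in old replicates 1 to 3. Its log2 fold change was 2.28 ± 1.20 (SE), with overlapping ages and an adjusted p of 0.316 (edgeR), which was 0.0388 without young replicate 2. The summed level of 9 megakaryocyte genes was 47.3 to 83.2 CPM in young and 230 to 320 CPM in old. Of the 9, 4 were higher, beside 5.84% of all genes tested. When 1 library was left out 1 to 6 were higher, lowest without young replicate 3 and highest without young replicate 2. The part of megakaryocytes in the Clec1b values was not tested. Clec1a was counted 2 to 17 times in young libraries and 12 to 41 times in old ones (log2 fold change 1.17 ± 0.73, adjusted p = 0.40, edgeR). Olr1, the receptor for oxidised lipoprotein, was at 0.773 to 3.73 CPM in young and 1.32 to 1.89 CPM in old (adjusted p = 0.711, edgeR). Clec9a, the dead-cell receptor of cross-presenting dendritic cells, and Clec12b had 0 counts in all 6 libraries.

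**Figure D2:**
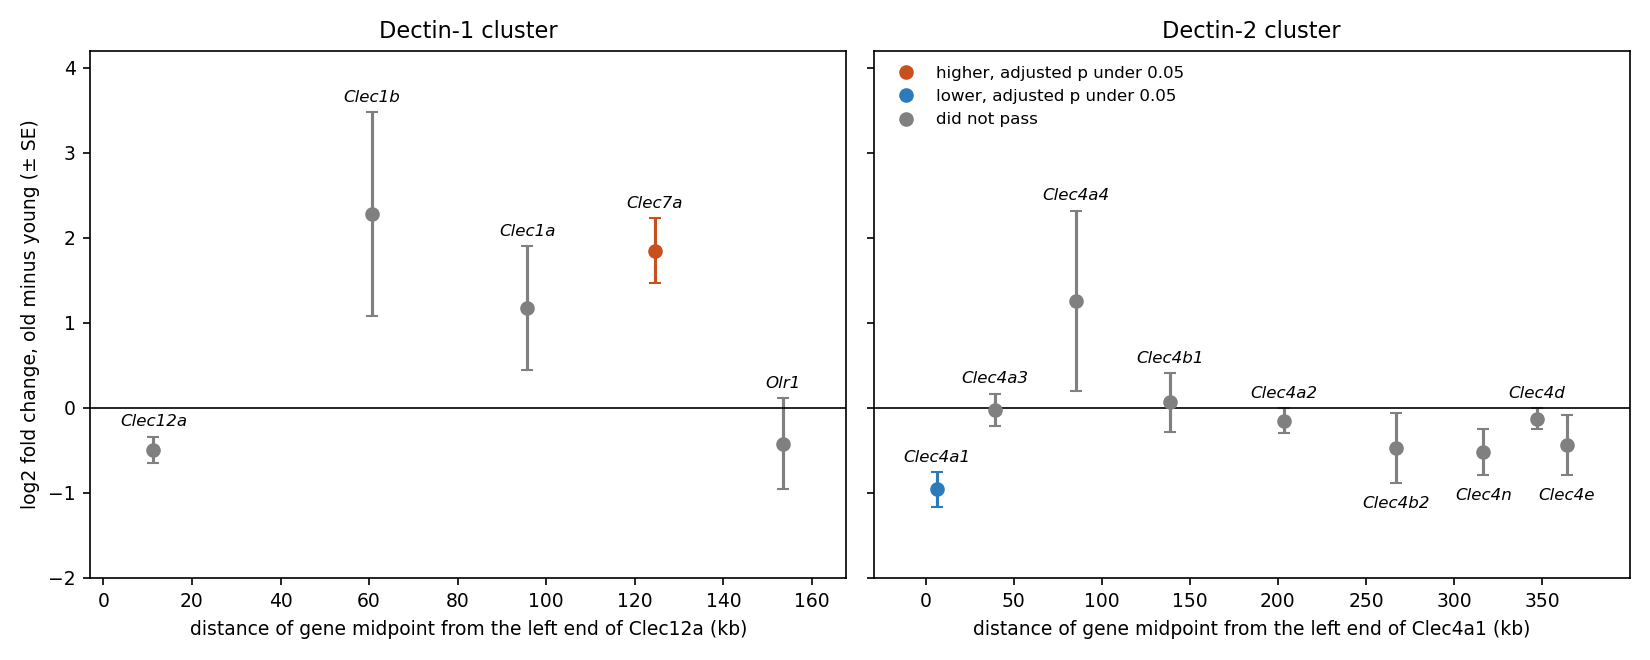
Log2 fold change, old minus young, with its SE (y axis), against the distance of each gene's midpoint from the left end of its cluster in kb (x axis). Orange passed as higher, blue as lower and grey did not pass, and genes with 0 counts in all libraries are left out. Clec7a at 1.85 and Clec12a at -0.50 lie in the same cluster.

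In the Dectin-2 cluster Clec4a1 was the 1 gene of 9 that passed, and it was lower in old. Clec4a1 (DCIR4, chr6:122921848-122934619, plus strand, ENSMUSG00000049037) is one of several closely related DCIR genes. Its level was 31.9, 33.7 and 21.7 CPM in young replicates 1 to 3 and 18.1, 13.3 and 13.4 CPM in old replicates 1 to 3. Every old library lay below every young one, and young replicate 3 and old replicate 1 were the closest. It fell 1.95-fold, with a log2 fold change of -0.96 ± 0.20 (SE) and an adjusted p of 0.0280 (edgeR). The call held without young replicate 3 (adjusted p = 0.00461) or old replicate 1 (0.0465). It was lost without young replicate 1 (0.0899), young replicate 2 (0.0807), old replicate 2 (0.114) or old replicate 3 (0.101), with a log2 fold change of -1.13 to -0.84 over the 6 fits.

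Its relatives Clec4a2 and Clec4a3 did not pass the test. Clec4a2, the inhibitory receptor DCIR1, was at 28.9, 35.2 and 25.1 CPM in young replicates 1 to 3 and 29.7, 26.5 and 24.2 CPM in old replicates 1 to 3, a log2 fold change of -0.15 ± 0.15 (SE, adjusted p = 0.616, edgeR). Clec4a3, or DCIR3, was at 27.0, 32.6 and 21.2 CPM in young replicates 1 to 3 and 31.9, 23.6 and 24.2 CPM in old replicates 1 to 3, a log2 fold change of -0.02 ± 0.19 (adjusted p = 0.965, edgeR). For both genes the ages overlapped throughout. Clec4a4 was counted 25, 2 and 0 times in young libraries and 30, 23 and 21 times in old ones (adjusted p = 0.552, edgeR), and Clec4b1 and Clec4b2 were near 1 CPM, with log2 fold changes of 0.06 and -0.47 (adjusted p = 0.943 and 0.569). None of the 10 receptors had an exon that overlaps another gene, but the sources do not say how reads shared by near-identical copies were counted, so values within the Clec4a and Clec4b groups are uncertain.

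The 3 genes whose products signal through the Fc receptor gamma chain did not pass the test. Clec4n, the mannan receptor Dectin-2 (chr6:123229843-123247021, plus strand, ENSMUSG00000023349), was at 111, 128 and 64.1 CPM in young replicates 1 to 3 and 67.0, 55.8 and 89.0 CPM in old replicates 1 to 3. Young replicate 3 fell among the old libraries, and the log2 fold change was -0.52 ± 0.27 (SE, adjusted p = 0.312, edgeR). Clec4d, or MCL, a receptor for mycobacterial glycolipid, was at 62.3, 77.8 and 60.1 CPM in young replicates 1 to 3 and 65.1, 58.7 and 59.8 CPM in old replicates 1 to 3. The old values lay around the lower young ones, with a log2 fold change of -0.13 ± 0.12 (adjusted p = 0.598, edgeR). Clec4e, or Mincle, the inducible receptor for the same glycolipid, was at 15.4, 16.2 and 10.1 CPM in young replicates 1 to 3 and 16.2, 7.87 and 6.72 CPM in old replicates 1 to 3. Old replicate 1 matched the highest young library while the other two old libraries lay below all young ones, and the log2 fold change was -0.44 ± 0.35 (adjusted p = 0.530, edgeR).

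Neutrophils and monocytes also carry several of these receptors, and their markers moved between libraries. The summed level of 13 neutrophil genes was 1836, 2425 and 1428 CPM in young replicates 1 to 3 and 1046, 979 and 1826 CPM in old replicates 1 to 3, with 1 of 13 higher, 1 lower (2 without young replicate 3 or old replicate 3) and none at 0 in all libraries. Its highest young and highest old library, young replicate 2 and old replicate 3, were also those of Clec4n, Clec5a and Clec7a. The other 7 receptors had their highest old value in old replicate 1. Young replicate 2 was the highest young library for 9 of the 10 receptors. Of the 13 neutrophil genes 12 had a negative log2 fold change, with a median of -0.62. The part of neutrophils in these values was not tested. The summed level of 10 monocyte genes was 552 to 651 CPM in young and 1006 to 1139 CPM in old, with 2 higher (F13a1 and Hp) and 1 lower (Ccr2, the receptor of blood monocytes, log2 fold change -2.49). Leaving out 1 library gave 1 to 4 monocyte genes higher and 1 to 3 lower, both highest without young replicate 3. The 12 dendritic cell genes summed to 202 to 254 CPM in young and 172 to 222 CPM in old, with 3 of the 10 tested higher and 2 lower (2 to 3 and 0 to 2 when 1 library was left out). Lists of some other cell types were higher in all 3 old libraries, as Clec7a was, and those of others overlapped between the ages. The 9 mast cell and basophil genes summed to 27.1 to 34.1 CPM in young and 68.0 to 112 CPM in old, with 5 higher and 0 lower. The 10 B lineage genes summed to 93.1 to 110 CPM in young and 186 to 259 CPM in old, with 5 of the 7 tested higher and 1 lower, and Igll1 at 0 in all libraries. For both lists 2 to 5 were higher when 1 library was left out, fewer in each fit but that without young replicate 3. The 10 osteoclast genes summed to 331 to 415 CPM in young and 586 to 686 CPM in old, with 2 of the 9 tested higher and 0 lower. The part of these cells in the receptor values was not tested. Beside the counts of these lists stand 5.84% of all genes tested higher and 4.7% lower.

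Clec5a and Clec10a were lower in each old library than in any young one, but neither passed the test. Clec5a (chr6:40574894-40585821, minus strand, ENSMUSG00000029915), the DAP12-coupled receptor outside both clusters, was at 24.1, 31.4 and 22.7 CPM in young replicates 1 to 3 and 18.9, 15.2 and 19.3 CPM in old replicates 1 to 3. Its log2 fold change was -0.55 ± 0.16 (SE, adjusted p = 0.0812, edgeR). Clec10a (chr11:70156197-70170834, plus strand, ENSMUSG00000000318), the galactose-type lectin MGL1, was the scarcest of the 10, at 6.59, 4.53 and 4.07 CPM in young replicates 1 to 3 and 3.24, 2.73 and 2.14 CPM in old replicates 1 to 3. Its log2 fold change was -0.90 ± 0.26 (adjusted p = 0.0734, edgeR), close in size to that of Clec4a1. Without young replicate 3, the library with the highest stromal level, both passed (adjusted p = 0.0390 for Clec5a and 0.0410 for Clec10a), so that 4 receptors were then lower. With the DESeq2 test on all libraries 4 were also lower, Clec4a1 (adjusted p = 0.00021), Clec5a (0.0209), Clec10a (0.0210) and Clec12a (0.0310), and Clec7a was higher (3.23e-06). Calls of lower grew over all genes too, from 731 in the main fit to 1168 without young replicate 3 and 1137 with DESeq2.

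**Figure D3:**
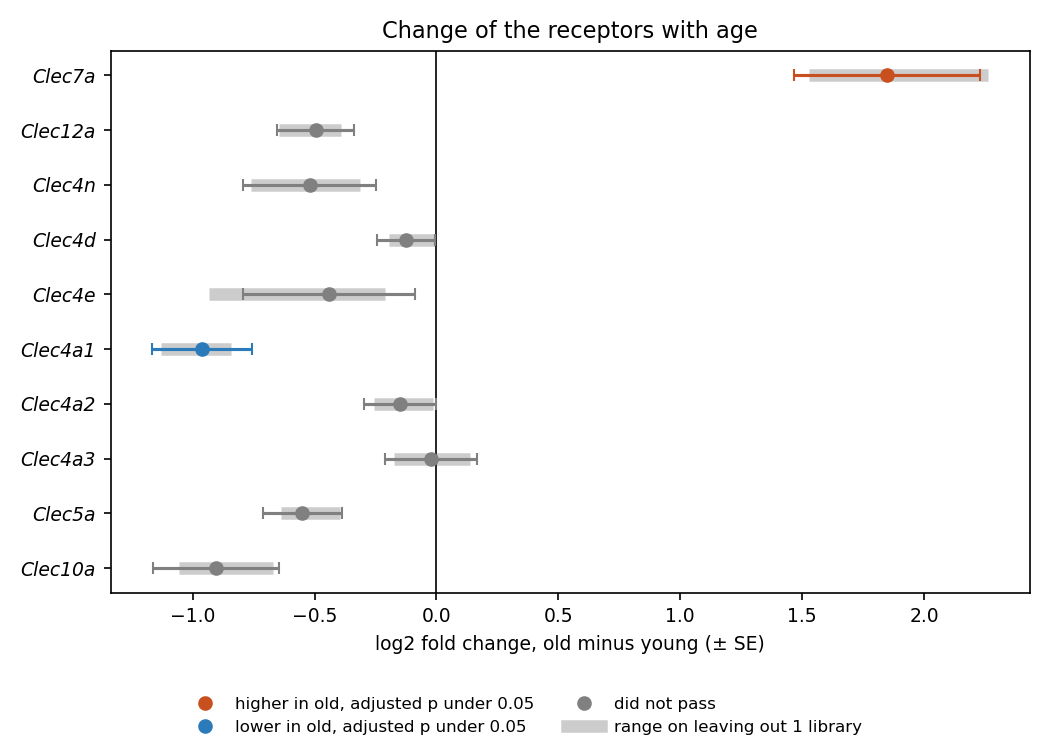
Log2 fold change, old minus young, with its SE (x axis) for the 10 receptors, with grey bars for the range when each library is left out in turn. Orange passed as higher, blue as lower and grey did not pass. Clec7a stays between 1.53 and 2.26 and Clec4a1 between -1.13 and -0.84, while Clec4a3 lies on both sides of 0.

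Levels were compared between receptors as CPM per kb of exon. In young cells Clec4n was the most abundant (71.2 ± 23.3, SD, n = 3), followed by Clec4d (41.7 ± 6.04), Clec4a3 (20.3 ± 4.28), Clec4a1 (18.7 ± 4.14), Clec12a (16.2 ± 3.12), Clec4a2 (10.2 ± 1.73), Clec5a (6.79 ± 1.22), Clec7a (5.53 ± 2.76), Clec4e (2.81 ± 0.666) and Clec10a (1.75 ± 0.464). Neighbours in this order overlapped between libraries, except that Clec4d lay above Clec4a3, Clec12a above Clec4a2 and Clec4a2 above Clec5a. In old cells Clec7a, at 19.9 ± 5.40, stood next to Clec4a3 at 20.0 ± 3.48 with overlapping libraries and above Clec12a (11.5 ± 1.23) without overlap. Clec4n (49.7 ± 11.9) and Clec4d (38.3 ± 2.14) still led, and Clec5a (4.64 ± 0.581), Clec4e (2.07 ± 1.04) and Clec10a (0.932 ± 0.190) were the last 3. Clec7a made up 2.72%, 3.50% and 1.9% of the summed CPM per kb of the 10 receptors in young replicates 1 to 3 and 9.94%, 11.3% and 14.6% in old replicates 1 to 3.

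The summed Dectin-1 cluster stood higher against the summed Dectin-2 cluster in old, with Clec7a in the sum. The log2 ratio of summed CPM, Dectin-1 over Dectin-2, was -1.31, -1.33 and -1.38 in young replicates 1 to 3 and -0.92, -0.80 and -0.74 in old replicates 1 to 3. The old libraries all lay above the young ones, by 0.52 on average. With Clec7a left out of the sum the difference was -0.11. No test was made of these sums.

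The receptors were also set against the summed macrophage identity genes. Because that sum fell, a gene with equal CPM at both ages stands 0.76 higher in old on this log2 scale, and 77.3% of all genes tested had old libraries above the young ones (1.92% below). For Clec7a the level per 1000 CPM of macrophage genes was 1.27, 1.77 and 0.563 in young replicates 1 to 3 and 5.95, 6.13 and 9.80 in old replicates 1 to 3, a mean log2 difference of 2.72 and so the 1 receptor of the 10 above 0.76. The old libraries lay above the young ones for 5 receptors, with mean log2 differences of 0.75 for Clec4a3, 0.64 for Clec4d, 0.62 for Clec4a2 and 0.28 for Clec12a beside that of Clec7a, and below them for 0, which is no larger a share than over all genes. Clec4a1, which was lower in CPM, overlapped between the ages on this scale, at 2.78, 2.72 and 1.67 in young replicates 1 to 3 and 2.38, 1.88 and 1.91 in old replicates 1 to 3 (mean log2 difference -0.19). Lyz2 gives much of this sum. With the geometric mean of the 20 genes as the denominator, chosen after seeing the data, an equal gene stands 0.57 higher, 4 receptors stood higher without overlap (65.5% of all genes tested), Clec12a no longer among them, and Clec7a differed by 2.53. These relative levels were not tested.

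**Figure D4:**
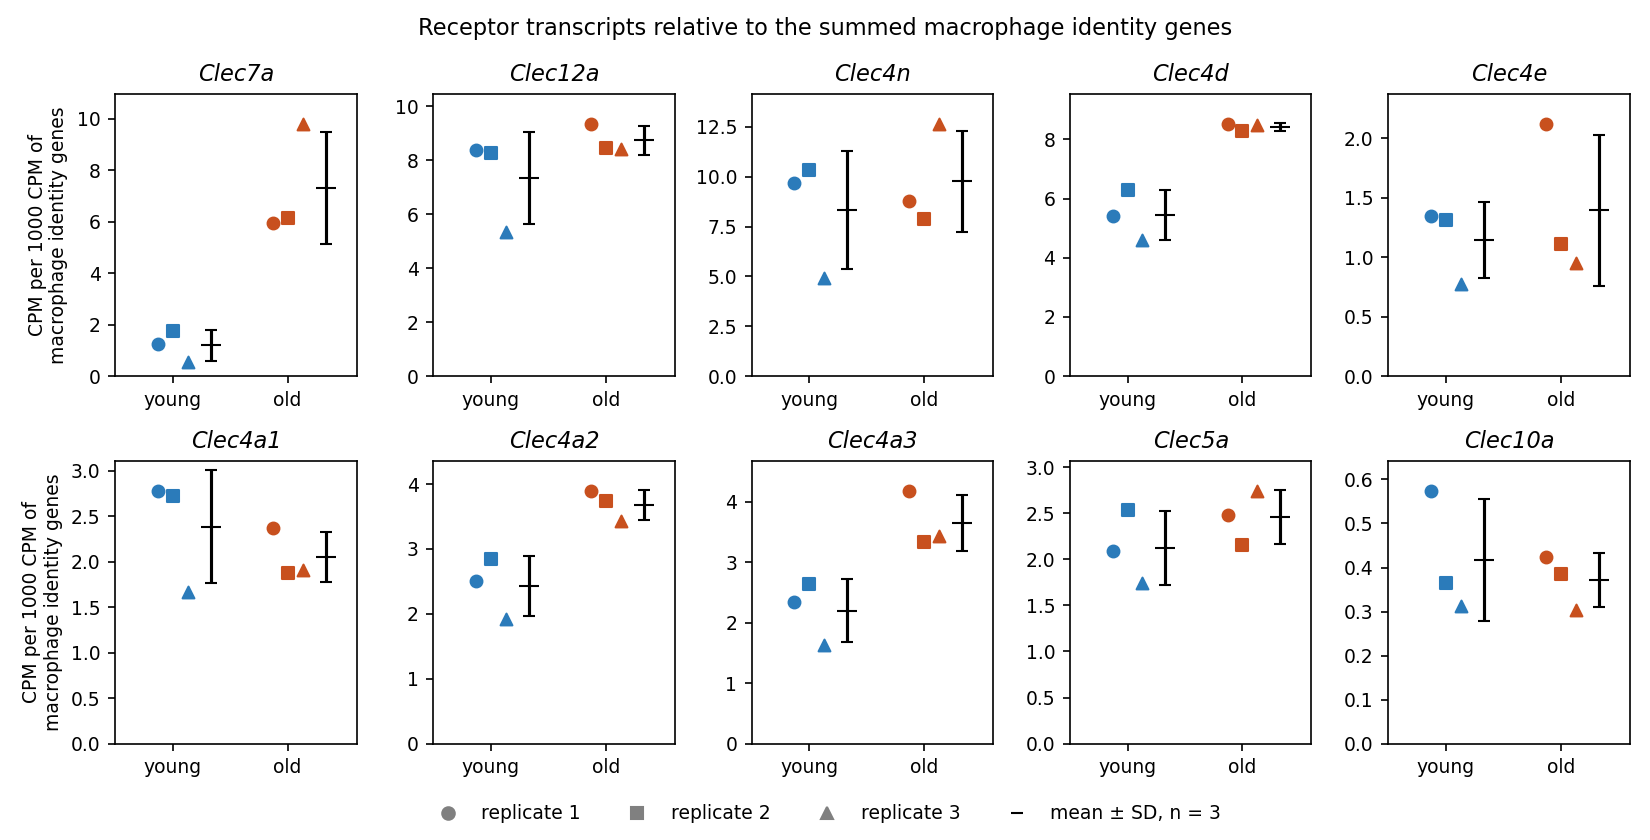
Receptor CPM per 1000 CPM of the summed macrophage identity genes (y axis, from 0) in the 3 young (blue) and 3 old (orange) libraries, with mean ± SD in black and marker shapes for replicate numbers. All 3 old points lie above the young ones for Clec7a, Clec12a, Clec4d, Clec4a2 and Clec4a3, on a scale where a gene with equal CPM stands 0.76 higher in log2.

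The adaptors Fcer1g, used by the products of Clec4n, Clec4d and Clec4e, and Tyrobp, used by that of Clec5a, were lower in old, and Syk did not pass the test. Of 16 adaptors and proximal kinases and phosphatases 7 fell and 0 rose (edgeR, 3 to 9 lower when 1 library was left out, lowest without old replicate 2, and 1 higher without young replicate 3). Their median log2 fold change was -0.43, beside -0.01 over all genes tested, of which 4.7% were lower and 5.84% higher. Fcer1g, the gamma chain used by Dectin-2, MCL and Mincle, was at 134, 138 and 120 CPM in young replicates 1 to 3 and 75.6, 70.0 and 68.5 CPM in old replicates 1 to 3. It fell 1.83-fold, without overlap, with a log2 fold change of -0.87 ± 0.09 (SE, adjusted p = 0.00161, edgeR) and a call that held when any 1 library was left out. Tyrobp, the DAP12 adaptor of Clec5a, was at 199, 198 and 181 CPM in young replicates 1 to 3 and 152, 144 and 138 CPM in old replicates 1 to 3, a 1.34-fold fall (log2 fold change -0.42 ± 0.08, adjusted p = 0.0164, edgeR). Its call was lost in 5 of the 6 fits that left out a library, all but that without young replicate 3, with an adjusted p of up to 0.0819.

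Syk, the kinase shared by these routes, was at 61.3, 75.1 and 74.1 CPM in young replicates 1 to 3 and 78.7, 71.4 and 74.9 CPM in old replicates 1 to 3. Its log2 fold change was 0.10 ± 0.10 (SE, adjusted p = 0.650, edgeR). The Src-family kinase Lyn (log2 fold change -0.68 ± 0.09, adjusted p = 0.00507), the lipid phosphatase Inpp5d (-0.60 ± 0.10, 0.0109) and the exchange factor Vav1 (-0.51 ± 0.08, 0.0105) fell (edgeR), and Vav1 alone of the 3 lost its call, without old replicate 1 or 2. The macrophage identity genes, with a median of -0.74, 14 of 20 lower and 1 higher, moved with this list, and their part in it was not tested.

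**Figure D5:**
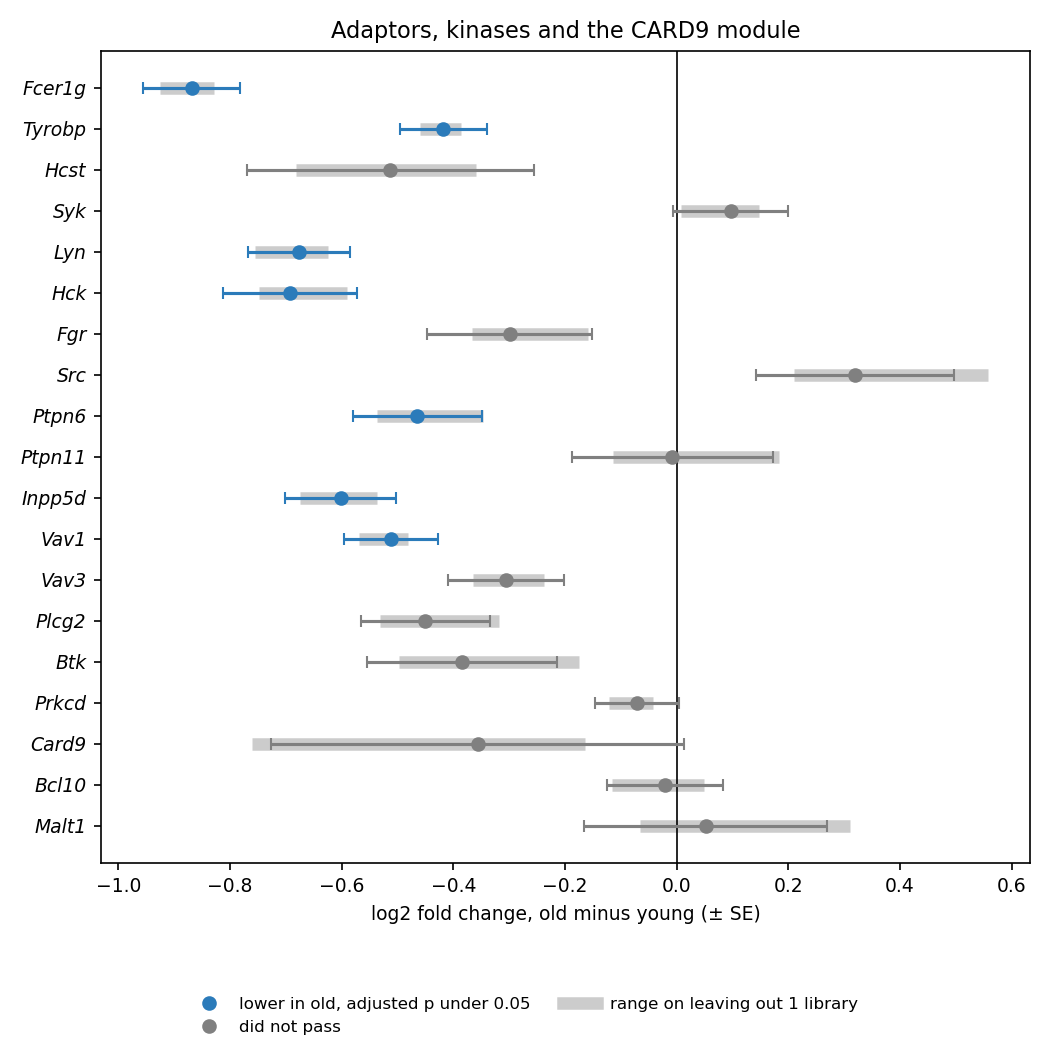
Log2 fold change, old minus young, with its SE (x axis) for the 16 receptor adaptors, kinases and phosphatases and for Card9, Bcl10 and Malt1, with grey bars for the range when each library is left out in turn. Fcer1g at -0.87 and Lyn at -0.68 are among the genes that passed as lower (blue), and Syk at 0.10 and Card9 at -0.36 did not pass (grey).

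Downstream, 1 of 15 genes of the CARD9 module and NF-kB fell and 0 rose (edgeR), beside 4.7% and 5.84% of all genes tested. With 15 genes, 1 lower is near that share. Leaving out 1 library gave 1 to 2 lower, 2 without young replicate 2, and 1 higher without young replicate 3. The median log2 fold change of the 15 was -0.15. Card9 itself was scarce, at 2.68, 1.53 and 2.50 CPM in young replicates 1 to 3 and 1.39, 1.25 and 2.61 CPM in old replicates 1 to 3, and did not pass (adjusted p = 0.641, edgeR). The gene that fell was Nfatc2, a calcium-dependent transcription factor (log2 fold change -0.88 ± 0.13, adjusted p = 0.00672, edgeR).

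Among genes that Syk and CARD9 signalling can induce, 2 of the 14 tested rose and 1 fell (edgeR, 2 to 4 higher and 0 to 4 lower when 1 library was left out, both highest without young replicate 3). Il1rn, the secreted antagonist of the IL-1 receptor, was at 157, 181 and 220 CPM in young replicates 1 to 3 and 523, 460 and 574 CPM in old replicates 1 to 3 (log2 fold change 1.48 ± 0.14, adjusted p = 0.00146, edgeR). Il6 was at 1.31, 1.39 and 0.624 CPM in young replicates 1 to 3 and 5.59, 4.23 and 5.11 CPM in old replicates 1 to 3 (2.16 ± 0.32, adjusted p = 0.00762, edgeR). Both calls held when any 1 library was left out. Nlrp3, the inflammasome sensor, fell (-1.07 ± 0.22, adjusted p = 0.0247, edgeR), with a call kept only without young replicate 3. The median of the 14 was -0.38, and Il23a had 0 counts in all 6 libraries. Beside the 2 higher and 1 lower of 14 stand 5.84% and 4.7% of all genes tested.

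Other C-type lectin genes moved in both directions, with 3 of 15 tested higher and 3 lower (edgeR), beside 5.84% and 4.7% of all genes tested. Leaving out 1 library gave 2 to 6 higher and 2 to 4 lower, both highest without young replicate 3. The median log2 fold change of the 15 was 0.07. Mrc1, the macrophage mannose receptor, fell (log2 fold change -0.97 ± 0.09, adjusted p = 0.00115), and so did Clec11a, a secreted growth factor of stromal cells (-1.55 ± 0.18, adjusted p = 0.00312, edgeR). Thbd, which encodes thrombomodulin, rose (2.40 ± 0.11, adjusted p = 0.00027), as did Selp, the P-selectin of platelets and endothelium (5.93 ± 0.88, adjusted p = 0.00740, edgeR), of whose exon length 14.1% overlaps another gene. Mgl2, the close relative of Clec10a, was below 1 CPM on average at both ages and did not pass (adjusted p = 0.955, edgeR). Of 19 other activating and inhibitory myeloid receptors tested, 5 fell and 0 rose, beside 4.7% and 5.84% of all genes tested. Leaving out 1 library gave 2 to 8 lower, highest without young replicate 3, and 1 higher without young replicate 3 or old replicate 3. The 5 that fell included Siglec1, Fcgr1 (-1.29 ± 0.18, adjusted p = 0.00525), Siglece (-1.83 ± 0.35, adjusted p = 0.0183) and Cd300lf (-1.19 ± 0.23, adjusted p = 0.0204, edgeR). The calls of Siglece and Cd300lf were lost in most of the fits without 1 library.

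The genes with the pattern most like that of a receptor over the 6 libraries were sought among 11165 genes with a mean of at least 5 CPM, by the root-mean-square difference of centred log2 CPM. For Clec7a they were Slamf8 (difference 0.203), Pf4 (0.348) and Stap1 (0.364). Slamf8, a myeloid surface receptor, was at 4.11, 4.19 and 1.31 CPM in young replicates 1 to 3 and 9.22, 9.09 and 15.1 CPM in old replicates 1 to 3, with young replicate 3 lowest and old replicate 3 highest as for Clec7a. Pf4, which encodes platelet factor 4, was at 48.7, 68.8 and 41.6 CPM in young replicates 1 to 3. In old replicates 1 to 3 Pf4 was at 190, 191 and 188 CPM. For Clec4n they were Herc6 (0.0930), H2-T10 (0.126) and Tfec (0.129). Herc6, an interferon-inducible gene, was at 44.8, 51.7 and 27.7 CPM in young replicates 1 to 3 and 28.9, 27.3 and 38.7 CPM in old replicates 1 to 3, again with young replicate 3 among the old libraries. Since likeness to the receptor chose these genes, their difference between the ages was not tested as a result.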

How the data were processed

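RNA of 10000 cells per library was amplified by SMART-Seq v4, which keeps no strand information, and read as pairs of 100 bp, per the labels' protocols. The deposited values are counts of reads per gene. The submitters' processing notes name the mm10 build, the aligners HISAT2 2.1.0 and STAR 2.6.1a, the trimmers Trim Galore 0.50 and cutadapt 1.18, and StringTie 1.3.4d, SAMtools 1.9 and Picard 2.18.15, with no order. The tool that counted, its annotation, its strand setting and its handling of multi-mapped reads were not given in the sources used here.

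Symbols were matched to 37607 of 39017 identifiers with GENCODE M21, and the rest held 0.340% to 0.398% of counts per library. Counts were filtered with filterByExpr, scaled by TMM and tested with edgeR 4.0.16 (robust quasi-likelihood test, R 4.3.3), with Benjamini-Hochberg adjustment over all genes tested. The SE is the absolute log2 fold change over the square root of F. CPM uses the TMM-scaled library sizes. Replicates differed beyond sampling noise, and young replicate 3 stood apart over all genes. The chi-square per degree of freedom was 113 and 119 for its pairs with the other young libraries. It was 28.4 for young replicates 1 and 2 and 23.3 to 31.5 for pairs of old libraries. Samples were grouped by the age in the labels.

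The receptors and the 18 gene lists were chosen with earlier results of these data known. The text names the 10 receptors, both clusters, Fcer1g, Tyrobp, Syk and Card9, up to 4 called genes per list by smallest p, and the 3 genes most like Clec7a and Clec4n. Adgre1, Lyz2 and Mgl2 were named otherwise. Some genes the rule names are given by their list's counts only or are not reported here. Alternatives were other scalings and filters, DESeq2 1.42.0, limma-voom (limma 3.58.1), a replicate block and leaving out each library. The procedure was tested on simulated data. Amplified reads are not independent molecules.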

Additional observations from a re-analysis of the deposited data

How the results depend on the processing

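Of 150 alternative values of the receptors' fold changes, 132 kept direction and side of the threshold, 9 lost the call, 6 gained one and 3 changed sign. The 3 were all of Clec4a3, which was between -0.17 and 0.14 when 1 library was left out. The receptors called higher were 0 to 1 and those called lower 0 to 4 when 1 library was left out, and the DESeq2 test called 4 lower. Over all genes, leaving out 1 library gave 418 to 1459 higher (lowest without old replicate 1, highest without young replicate 3) and 294 to 1168 lower (lowest without old replicate 2, highest without young replicate 3), and the DESeq2 test gave 1331 higher and 1137 lower. The cause was not tested. The difference between the ages in the cluster ratio changed sign, to -0.11, with Clec7a left out. Leaving out this gene had to lower the difference, but did not fix its sign. Same-numbered libraries of the 2 ages deviated together only weakly (r = 0.0883, 0.0340 and 0.0900, under 0.1), although every library correlated best with its own number. The main fit did not take the numbers as pairs, and whether same-numbered libraries shared a batch was not tested. With a replicate block 0 receptors were higher (Clec7a adjusted p = 0.0735, edgeR), 1 stayed lower, and 711 genes were higher and 575 lower. Clec1a, Clec1b and Clec4a4 rest on few counts that differ widely between libraries of 1 age.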
